A study of Mus musculus with 2 samples.

Results

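Chromatin domain boundaries that lie at the 3′ ends of protein-coding genes, with no protein-coding 5′ end nearby, made up 1005 of the 8058 boundaries (12.5%) listed for mature olfactory sensory neurons of the mouse. A boundary was taken when at least 1 coding 3′ end lay within 20 kb of the midpoint of its 5 kb interval and no coding 5′ end did, by the gene records of GENCODE M21 on GRCm38. In 183 of them, called convergent here, 3′ ends of genes on both strands lay within 20 kb. Convergent refers to the annotated strands, and transcription was not measured in the list. The other 822, called single-sided, had 3′ ends of 1 strand only. The 20 kb window held 1 coding 3′ end at 820 of the boundaries, 2 at 184 and 3 at 1.

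The data come from in situ Hi-C, which ligates neighbouring DNA fragments in fixed nuclei and so maps contacts along chromosomes. Nuclei came from 1 group of untreated, adult, mixed-sex mice of strain 129P2/OlaHsd carrying OMP-GFP, in which the olfactory marker protein gene drives a fluorescent protein in mature neurons, and the neurons were collected by FACS from the olfactory epithelium. A first biological replicate used 3000000 cells and a second 1500000 cells, fixed with 1% formaldehyde and cut with DpnII, and both went into a single contact map before boundaries were called. A boundary list holds no RNA, so the sorted cell type could not be checked against marker genes here.

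A boundary is a place across which contacts between neighbouring stretches of chromatin are rare. Many boundaries form where CTCF, a zinc finger protein, stops the ring complex cohesin as it extrudes DNA loops, and CTCF stops cohesin mainly when its motif points into the loop. Transcribed genes are also known at boundaries: cohesin and RNA polymerase both move along DNA, and cohesin is known in mammalian cells to gather near the 3′ ends of active genes, in particular convergent ones, when CTCF is depleted and cohesin unloading is impaired. Promoters are the gene ends usually discussed at boundaries, so the boundaries described here are those where a gene ends and no coding gene starts.

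The sequences below are the CTCF core matches nearest the midpoint at the strongest boundaries that had a match, shown because they mark where the motif lies and which way it points at the sites with the highest scores. Each is 50 bases of the RefSeq GRCm38.p6 reference, 5′ to 3′ on the strand of the match, with the 14 bases that match the CTCF core consensus in capitals. The reference is not the strain of these mice. At convergent boundaries the matches were:
Ncoa3/Sulf2: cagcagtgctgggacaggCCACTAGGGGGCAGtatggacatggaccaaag
Adra1a/Dpysl2: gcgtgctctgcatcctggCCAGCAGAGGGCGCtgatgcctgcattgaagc
Caln1/Galnt17: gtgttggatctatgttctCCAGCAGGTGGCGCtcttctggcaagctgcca
Csmd2/Zscan20: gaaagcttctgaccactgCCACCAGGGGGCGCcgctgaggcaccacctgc
Chrm1/Slc3a2: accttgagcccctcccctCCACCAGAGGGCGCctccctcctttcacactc
In the order printed, these windows lay at chr2:166082358-166082407 (minus strand) for Ncoa3/Sulf2, chr14:66785081-66785130 (minus strand) for Adra1a/Dpysl2, chr5:130859889-130859938 (minus strand) for Caln1/Galnt17, chr4:128579332-128579381 (plus strand) for Csmd2/Zscan20 and chr19:8695545-8695594 (plus strand) for Chrm1/Slc3a2. The window at Ncoa3/Sulf2 lay in an intron of Sulf2, and the other 4 lay between coding genes. At single-sided boundaries the matches were:
Cmip: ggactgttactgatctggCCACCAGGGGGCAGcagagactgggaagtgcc
Cenpc1: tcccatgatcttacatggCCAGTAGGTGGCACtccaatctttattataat
Sgk1: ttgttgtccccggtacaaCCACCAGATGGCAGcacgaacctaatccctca
Ipmk: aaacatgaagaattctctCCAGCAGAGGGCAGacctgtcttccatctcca
These lay at chr8:117475121-117475170 (minus strand) for Cmip, chr5:85992253-85992302 (minus strand) for Cenpc1, chr10:22010301-22010350 (minus strand) for Sgk1 and chr10:71430828-71430877 (plus strand) for Ipmk. The window at Ipmk lay in an intron of that gene and the other 3 lay between coding genes. Of these 9 matches, 7 pointed away from the boundary midpoint, and those at Caln1/Galnt17 and Chrm1/Slc3a2 pointed toward it. Over all boundaries 66.9% of matches within 20 kb pointed away.

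Only a single list, called on the map of both replicates together, was used, so replicate error is unknown and no test was made. The list gives each boundary a strength, a score of the authors without a stated scale, and a class, which was Weak for scores from 0.2 to 0.5 and Strong above 0.5. Intervals given with shares are 95% exact Clopper-Pearson intervals, those with medians are exact binomial intervals, and those with differences of shares are Newcombe intervals. They cover the counting of boundaries or bins only. Boundaries lay at least 45 kb apart, so no 3′ end was counted at more than 1 boundary. Boundaries are set beside 2842 that had a coding 5′ end within 20 kb, called promoter boundaries, and 4211 that had no coding gene end within 20 kb. Of the promoter boundaries, 1804 also had a coding 3′ end within 20 kb. Frequencies are set against all 5 kb bins of the genome without undetermined bases (511497 bins, 2557 Mb), which were counted completely by the same rule.

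Boundaries were frequent at coding 3′ ends that had no coding 5′ end nearby. The rule took 43659 of the callable bins (8.54%), and these bins held 1001 of the 8052 boundaries in callable bins (12.4%). Of the bins meeting the rule 2.29% were boundaries (interval 2.15 to 2.44%), against 1.57% of all bins, a ratio of 1.46. The share was 2.44% in convergent bins (2.10 to 2.81%) and 2.26% in single-sided bins (2.11 to 2.42%), and these intervals overlap. Bins with a coding 5′ end within 20 kb reached nearly the same share, 2.30% (2.22 to 2.39%). Bins without any coding gene end within 20 kb reached 1.22% (1.19 to 1.26%).

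The excess over the genome lay mainly in the Strong class. Strong boundaries numbered 2.82 per Mb in bins that met the rule, 2.95 per Mb in promoter bins, 0.960 per Mb in bins without a coding gene end and 1.60 per Mb over all bins. Weak boundaries numbered 1.76 per Mb in bins that met the rule, 1.66 per Mb in promoter bins, 1.48 per Mb in bins without a coding gene end and 1.55 per Mb over all bins. The ratio to all bins was thus 1.77 for Strong and 1.14 for Weak boundaries.

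Counted from the genes, 1223 of the 6341 coding 3′ ends that had no coding 5′ end within 20 kb had a Strong or Weak boundary at most 20 kb away (19.3%, interval 18.3 to 20.3%). A boundary midpoint lay within 20 kb of 14.2% of callable bins. The share was 20.1% for the other coding 3′ ends and 19.1% for all coding 5′ ends, so the 3 kinds of gene end differed by at most about 1 percentage point. With Strong boundaries alone, 11.95% of the isolated 3′ ends had a boundary within 20 kb, against 7.19% of callable bins. With Weak boundaries alone the values were 7.33% of isolated 3′ ends and 6.97% of callable bins.

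The boundaries at coding 3′ ends were about as strong as those at promoters and stronger than those away from coding gene ends. Of the 1005, 618 were Strong and 387 Weak, a Strong share of 61.5% (58.4 to 64.5%), against 50.8% of all boundaries. Promoter boundaries had a Strong share of 64.0% (62.2 to 65.8%), and boundaries without a coding gene end 39.3% (37.8 to 40.8%). The difference was -2.55 percentage points from promoter boundaries, with an interval of -6.06 to 0.908 that includes 0, and 22.2 points from boundaries without a gene end (18.8 to 25.5). The median strength was 0.632 (0.598 to 0.668) at coding 3′ ends, 0.676 (0.649 to 0.700) at promoters and 0.394 (0.384 to 0.408) without a coding gene end. Single strengths at coding 3′ ends ran from 0.2002 to 3.02, with an interquartile range of 0.366 to 1.05, and 37 boundaries (3.68%) scored 2 or more, against 3.46% of all boundaries and 5.17% of promoter boundaries.

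**Figure D1:**
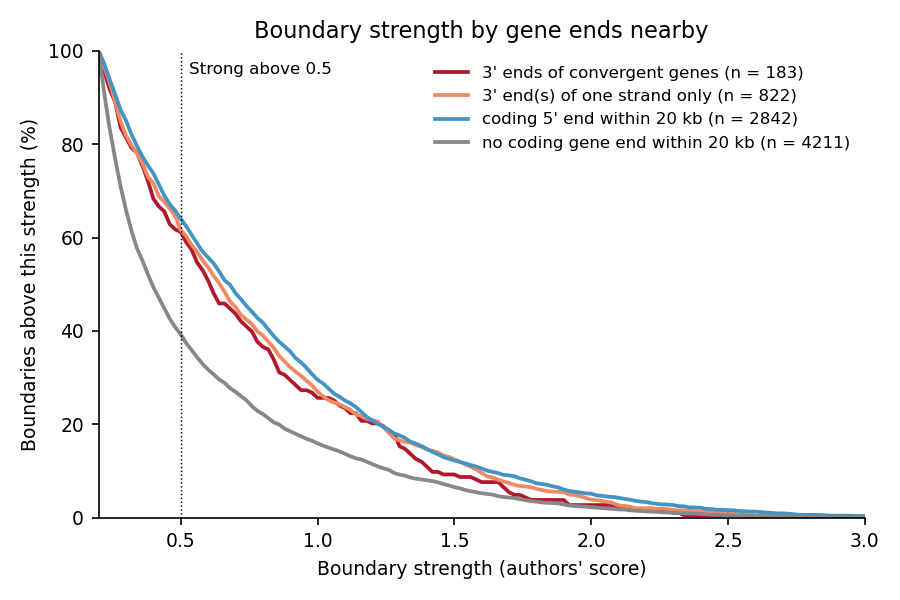
The share of boundaries (%, vertical axis) above each strength (authors' score, horizontal axis) is drawn for convergent (n = 183) and single-sided (n = 822) 3′ end boundaries, promoter boundaries (n = 2842) and boundaries without a coding gene end within 20 kb (n = 4211). The curves of both kinds of 3′ end boundaries run close to that of promoter boundaries, and at the dotted limit of 0.5 they stand at 61.2 and 61.6%, against 64.0% for promoters and 39.3% without a gene end.

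How far the nearest coding 5′ end lay divided the comparison with boundaries that had no coding gene end. From 20 to 30 kb from a coding 5′ end, 63.7% of 314 boundaries at 3′ ends were Strong, against 58.6% of 418 without a gene end, a difference of 5.08 points (-2.07 to 12.1). From 30 to 50 kb the shares were 62.1% of 280 and 58.0% of 588, a difference of 4.15 points (-2.86 to 10.95). From 50 to 100 kb they were 62.1% of 240 and 55.2% of 870, a difference of 6.91 points (-0.174 to 13.7). In these 3 ranges the interval of the difference included 0. Beyond 100 kb the shares were 55.6% of 171 boundaries at 3′ ends (47.8 to 63.1%) and 25.2% of 2335 without a gene end (23.4 to 27.0%), a difference of 30.4 points (22.7 to 37.8). The largest difference thus lay beyond 100 kb, a range that held 2335 of the 4211 boundaries without a gene end but 171 of the 1005 at 3′ ends. The pooled difference of 22.2 points therefore also carries the unlike distances of both groups to coding 5′ ends, and these parts were not separated.

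Frequency behaved otherwise. From 20 to 30 kb from a coding 5′ end, 2.23% of bins at 3′ ends were boundaries (1.99 to 2.49%), against 1.76% of bins without a gene end (1.60 to 1.93%). Beyond 100 kb the values were 2.44% of bins at 3′ ends (2.09 to 2.82%) and 1.09% of bins without a gene end (1.04 to 1.13%). The frequency at 3′ ends stayed between 2.18 and 2.44% over the 4 ranges, while that of bins without a gene end was lower in each range than in the one nearer to a 5′ end.

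**Figure D2:**
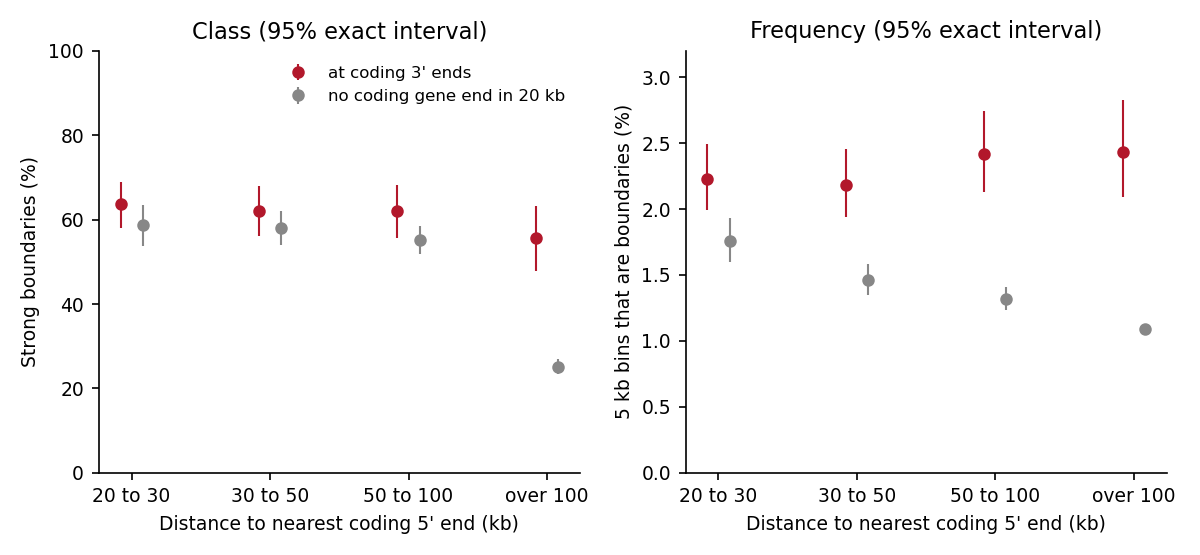
The left panel gives the share of boundaries that were Strong (%) and the right panel the share of 5 kb bins that were boundaries (%), by distance to the nearest coding 5′ end (kb), with 95% exact intervals, for boundaries or bins at coding 3′ ends (red) and without a coding gene end within 20 kb (grey). Strong shares lie close together up to 100 kb and stand at 55.6 and 25.2% beyond it, whereas the frequencies differ in all 4 ranges.

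Base composition moved with these groups, and its part in the differences was not tested. Median GC content over the 25 kb centred on the boundary was 44.2% at coding 3′ ends, 44.8% at promoter boundaries and 40.2% without a coding gene end. Among the 3′ end boundaries it was 46.4% at convergent and 43.8% at single-sided ones. The bins of these groups differed in the same order. Their medians were 43.0% for bins meeting the rule, 43.9% for promoter bins and 40.1% without a coding gene end. Convergent bins had 44.9% and single-sided bins 42.7%. Genes of other biotypes lay near about as often as in the background. A non-coding or pseudogene 5′ end was found within 20 kb of 377 of the 1005 boundaries (37.5%), against 38.2% of all boundaries and 36.9% of bins meeting the rule. A lincRNA 5′ end was found within 20 kb of 71 (7.06%), against 8.07% of all boundaries and 6.46% of bins meeting the rule. The Strong share was 64.2% with such a 5′ end of any biotype and 59.9% without. With a lincRNA 5′ end it was 70.4% (58.4 to 80.7%), and without 60.8% (57.6 to 64.0%).

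Position along the gene showed where in relation to the 3′ end the boundaries fell. The midpoint lay beyond the nearest coding 3′ end, outside the gene, at 527 of the 1005 boundaries (52.4%, 49.3 to 55.6%), and 48.9% of the bins meeting the rule lay on that side. Within 5 kb of the 3′ end lay 304 midpoints (30.2%), against 26.4% of the bins meeting the rule. The median distance was 8.74 kb. Midpoints lay in the body of a coding gene at 519 of the boundaries (51.6%), against 56.5% of bins meeting the rule, 49.9% of promoter boundaries and 37.8% of all boundaries. The 5 kb interval overlapped a coding gene's exon at 493 (49.1%), against 48.6% of bins meeting the rule, 53.9% of promoter boundaries and 29.8% of all boundaries.

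Bins around 3′ ends that had no coding 5′ end within 20 kb gave an asymmetric profile. From 60 to 20 kb before the 3′ end, on the side of the gene, 1.21% of bins were boundaries (1.11 to 1.32%). The share was 2.13% in the last 20 kb before the 3′ end (1.95 to 2.33%), 2.46% in the first 20 kb beyond it (2.26 to 2.68%) and 2.00% from 20 to 60 kb beyond it (1.86 to 2.16%). From 60 to 100 kb beyond it the share was 1.07% (0.937 to 1.23%). In steps of 5 kb inside the window, the share was lowest from 20 to 15 kb before the 3′ end, at 1.64% (1.32 to 2.02%), and highest in the last 5 kb before it, at 2.72% (2.32 to 3.17%). The bins from 20 to 25 kb beyond the 3′ end, just outside the window, had 2.78% (2.36 to 3.25%). The Strong share varied little with position inside the window, from 56.6 to 65.2% over the 8 steps.

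**Figure D3:**
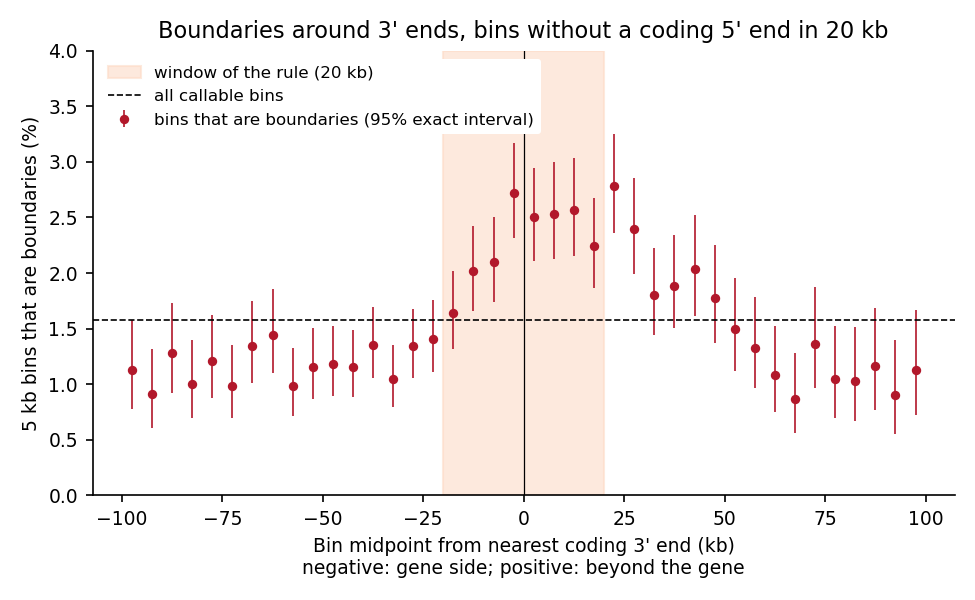
Each point is the share of 5 kb bins that were boundaries (%), by the bin's distance from the nearest coding 3′ end (kb, negative on the side of the gene), with 95% exact intervals, over bins without a coding 5′ end within 20 kb. Shares on the gene side stay below the dashed line of all callable bins (1.57%) until the 20 kb window (shaded), and shares beyond the gene stay above it as far as 50 kb.

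The limits of the window fell in a range where boundaries were still frequent. Just inside it, with the nearest 3′ end at 19 to 20 kb, were 44 boundaries with a median strength of 0.435, of which 18 were Strong. Just outside, at 20 to 21 kb, were 66 with a median of 0.845, of which 46 were Strong. At the other limit, 33 boundaries whose nearest coding 5′ end lay 20 to 21 kb away were inside, with a median of 0.478 and 16 Strong. The 49 with a 5′ end 19 to 20 kb away were outside, with a median of 0.735 and 35 Strong.

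Convergent and single-sided boundaries had nearly the same Strong share. Their Strong share was 61.2% (112 of 183, 53.7 to 68.3%), against 61.6% (506 of 822, 58.1 to 64.9%) at single-sided ones. The difference was -0.355 points, and its interval of -8.28 to 7.20 points allows a difference of several points either way. The median strength was 0.607 (0.540 to 0.702) at convergent and 0.644 (0.604 to 0.672) at single-sided boundaries. Strengths of 2 or more were found at 5 convergent (2.73%) and 32 single-sided boundaries (3.89%).

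Convergent boundaries lay much as the bins of their kind did, whereas single-sided ones lay outside the gene more often than theirs. At convergent boundaries the midpoint was in the body of a coding gene in 140 of 183 (76.5%), where 77.3% of convergent bins were, so this share is that of the rule. At single-sided boundaries it was in 379 of 822 (46.1%), where 52.2% of single-sided bins were. The midpoint lay beyond the nearest 3′ end at 36.6% of convergent boundaries, where 40.8% of convergent bins did, and at 56.0% of single-sided boundaries (52.5 to 59.4%), where 50.6% of single-sided bins did. The gap between convergent 3′ ends had a median of 4.52 kb, with overlapping genes counted as negative gaps. The rule itself limits this gap, since both ends must lie within 20 kb of the midpoint. The boundary lay between the 2 ends in 44 cases (24.0%, 18.05 to 30.9%), where 23.1% of convergent bins did. It lay to one side of the gap in 111 (60.7%, 53.2 to 67.8%), where 55.9% of convergent bins did, and at genes whose 3′ ends overlap in 28 (15.3%, 10.4 to 21.3%), where 21.1% did. The Strong share was 59.1% between the ends, 63.1% beside the gap and 57.1% at overlapping genes, with intervals that overlap. Bins at overlapping genes were boundaries in 1.77%, against 2.54% of bins between the ends and 2.64% of bins beside the gap.

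CTCF core matches were found within 20 kb of 279 of the 1005 boundaries (27.8%, 25.0 to 30.6%), against 20.3% of all boundaries and 9.10% of all callable bins (46569 of 511497). A match here is an exact run of the 14-base core consensus on either strand, and a missing match says nothing of CTCF itself. Promoter boundaries had a match in 26.1% (24.5 to 27.7%) and boundaries without a coding gene end in 14.7% (13.6 to 15.8%). The share at 3′ end boundaries was 13.1 points above that without a gene end (10.2 to 16.1) and 1.69 points above that at promoters, an interval of -1.46 to 4.95 that includes 0. The promoter group was mixed in this respect. Its 1804 boundaries that also had a coding 3′ end within 20 kb had a match in 29.3% (27.2 to 31.4%). Its 1038 without a coding 3′ end had one in 20.5% (18.1 to 23.1%), below the share at 3′ end boundaries. Bins that met the rule but were no boundary had a match in 14.7%, and bins without a gene end that were no boundary in 6.14%.

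Convergent boundaries had a match in 33.3% (26.6 to 40.7%) and single-sided ones in 26.5% (23.5 to 29.7%). The difference of 6.81 points had an interval of -0.331 to 14.5. The bins differed in the same direction: 18.1% of convergent bins that were no boundary had a match, against 13.98% of single-sided ones. Within the convergent group the share was highest between the 2 ends, 23 of 44 boundaries (52.3%, 36.7 to 67.5%), where 19.03% of bins had a match. Beside the gap it was 27.9% of 111 boundaries and 19.6% of bins, and at overlapping genes 25.0% of 28 boundaries and 14.7% of bins.

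Boundaries with a CTCF match were stronger than those without, and the 726 without a match were still mostly Strong. At coding 3′ ends the Strong share was 74.9% with a match (69.4 to 79.9%) and 56.3% without (52.6 to 59.98%), a difference of 18.6 points (12.1 to 24.5), with medians of 0.791 and 0.576. Without a coding gene end the shares were 66.6% with and 34.6% without a match, a difference of 31.98 points (27.9 to 35.9). At promoter boundaries they were 71.8% with and 61.3% without. Among boundaries that lacked a match, the Strong share was thus 56.3% at 3′ ends, 61.3% at promoters and 34.6% without a coding gene end. At convergent boundaries the shares were 68.9% with and 57.4% without a match, and at single-sided ones 76.6% with and 56.1% without.

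The motifs had a preferred direction. Of 339 matches within 20 kb of the 3′ end boundaries, 229 pointed away from the midpoint, into the neighbouring domain, and 110 toward it, a share of 67.6% (62.3 to 72.5%), against 66.9% for matches at all boundaries. The share was 64.6% of 79 matches at convergent boundaries (53.0 to 75.0%) and 68.5% of 260 at single-sided ones (62.4 to 74.1%). More than 1 match lay within 20 kb of 54 boundaries, and 26 had matches on both strands.

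Relative to the ending gene, the motif direction at single-sided boundaries depended on the side. Matches beyond the 3′ end were on the gene's own strand in 99 of 152 (65.1%, 56.99 to 72.7%), so that they pointed away from the gene. Matches before the 3′ end were on the gene's strand in 49 of 108 (45.4%, 35.8 to 55.2%). Over both sides the share was 56.9% of 260 (50.7 to 63.0%). Divided at the boundary midpoint instead, matches on the far side from the gene were on the gene's strand in 96 of 126 (76.2%, 67.8 to 83.3%) and those on the gene side in 52 of 134 (38.8%, 30.5 to 47.6%). This division at the midpoint only restates the direction given above. On the far side a match on the gene's strand points away from the midpoint by definition, and on the gene side it points toward it. The division at the 3′ end is not independent of that direction either, since the midpoint is taken within 20 kb of the 3′ end.

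On all chromosomes the Strong share was above that of boundaries without a coding gene end, with a wide range of differences. Distance to the nearest coding 5′ end was not divided here. The Strong share at coding 3′ ends averaged 62.6 ± 8.46% over autosomes, against 64.8 ± 3.14% at promoters and 40.6 ± 4.13% without a gene end (SD, n = 19 chromosomes). It was higher than without a gene end on 20 of 20 chromosomes, by 0.724 points on chromosome 7 up to 40.7 points on chromosome 4. On X the difference was 2.25 points. No interval is given for single chromosomes, so the small differences on chromosomes 7 and X are not read as a lead. The Strong share at coding 3′ ends was higher than at promoters on 8 of 20. Chromosome 4 had the highest Strong share among the 3′ end boundaries, 79.2% of 53, and chromosome X the lowest, 13 of 43 (30.2%). On X promoter boundaries were also less often Strong than on any autosome, at 43.3%, and boundaries without a gene end were at 28.0%. Bins that met the rule were boundaries more often than all bins on 20 of 20 chromosomes, by ratios from 1.05 on chromosome 14 to 2.35 on chromosome 18. On chromosome 18, 60 of 284 boundaries (21.1%) met the rule, the highest share, and the lowest was 7.99% on chromosome 12. Chromosomes are not replicates of the experiment, and their spread is given as a description.

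**Figure D4:**
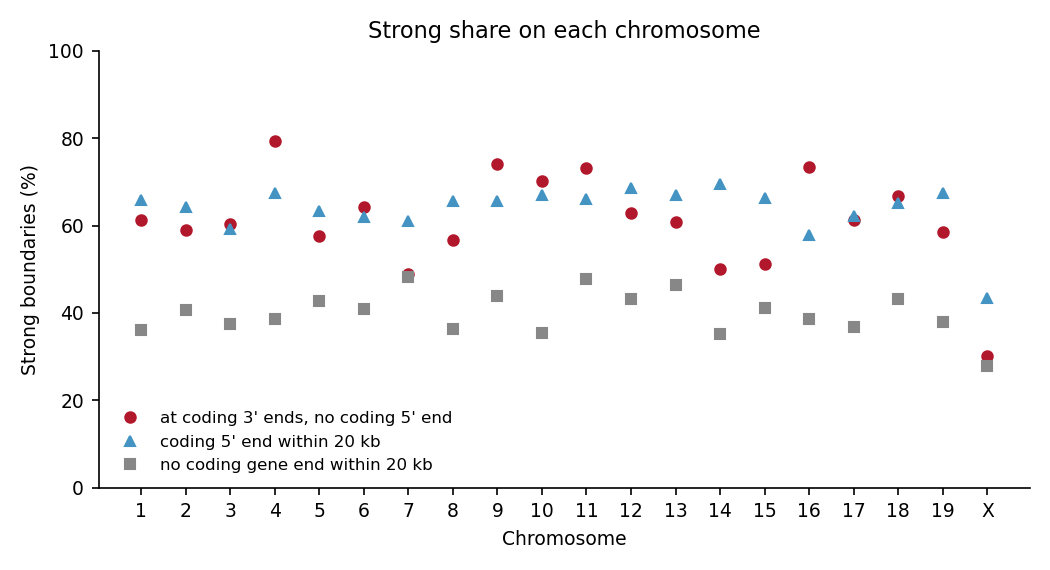
The share of boundaries that were Strong (%) on each chromosome is shown for boundaries at coding 3′ ends without a coding 5′ end (red circles), promoter boundaries (blue triangles) and boundaries without a coding gene end within 20 kb (grey squares). The red points spread from 30.2% on X to 79.2% on chromosome 4 and lie above the grey ones on all 20 chromosomes, by 0.724 points on chromosome 7.

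Of the 12 strongest convergent boundaries, 11 are described, with strengths from 1.69 to 2.58, at gene pairs of diverse function. A CTCF core match lay within 20 kb of 7 of the 11, and the midpoint lay outside coding genes at 6. Over all 183 convergent boundaries 33.3% had a match, and the midpoint was inside a coding gene at 76.5%. The strongest, at 2.58 (chr3:158085001-158090000), lay 4.61 kb inside the 3′ part of Lrrc7, which encodes the postsynaptic density protein densin, and 19.01 kb beyond the end of Lrrc40. No match was found there. The next, at 2.33 (chr2:166085001-166090000), lay 14.4 kb inside Sulf2, an extracellular enzyme that removes sulfate from heparan sulfate, whose 3′ end overlaps that of Ncoa3, a nuclear receptor coactivator. Its 2 CTCF matches lay on either side of the midpoint and both pointed away, the nearer being the Ncoa3/Sulf2 sequence printed above.

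The next 4 described lay in the gap between 2 convergent genes and had a match each, or 2 in the case of Chrm1/Slc3a2. The boundary at Adra1a, the alpha-1A adrenergic receptor, and Dpysl2, a collapsin response mediator of axon growth, scored 2.30 (chr14:66785001-66790000). It lay 16.3 kb beyond Adra1a and 15.4 kb beyond Dpysl2. The boundary at Caln1, a neuronal calcium-binding protein, and Galnt17, of the GalNAc-transferase family, scored 2.13 (chr5:130855001-130860000) and lay 10.1 kb beyond Caln1 and 14.6 kb beyond Galnt17. These genes are 478 and 436 kb long, so that the nearest coding 5′ end, that of Galnt17, lay 451 kb away.

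The boundary at Csmd2, a CUB and sushi domain protein, and the zinc finger gene Zscan20 scored 2.09 (chr4:128575001-128580000), 9.84 kb beyond Csmd2 and 6.04 kb beyond Zscan20. The one at Chrm1, the M1 muscarinic acetylcholine receptor, and Slc3a2, the heavy chain of amino acid transporters, scored 1.91 (chr19:8695001-8700000), 13.9 kb beyond Chrm1 and 9.38 kb beyond Slc3a2.

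Of the 5 described after these, 3 had no core match. The boundary at Sema5b, a semaphorin, and Dirc2, a lysosomal membrane transporter, scored 1.77 (chr16:35680001-35685000). The one at Napg, the vesicle fusion protein gamma-SNAP, and Piezo2, a mechanically gated ion channel, scored 1.76 (chr18:63000001-63005000). The one at Eif2s1, a subunit of translation initiation factor eIF2, and Plek2, a pleckstrin, scored 1.69 (chr12:78880001-78885000) and lay inside Eif2s1, 4.51 kb before its end. A match was present at Ninj2, an adhesion molecule, and the glycosyltransferase gene B4galnt3, which scored 1.72 (chr6:120190001-120195000), and at Plg, plasminogen, and Slc22a3, an organic cation transporter, which scored 1.69 (chr17:12405001-12410000). Both of these lay inside the plus strand gene, Ninj2 by 7.84 kb and Plg by 11.9 kb.

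**Figure D5:**
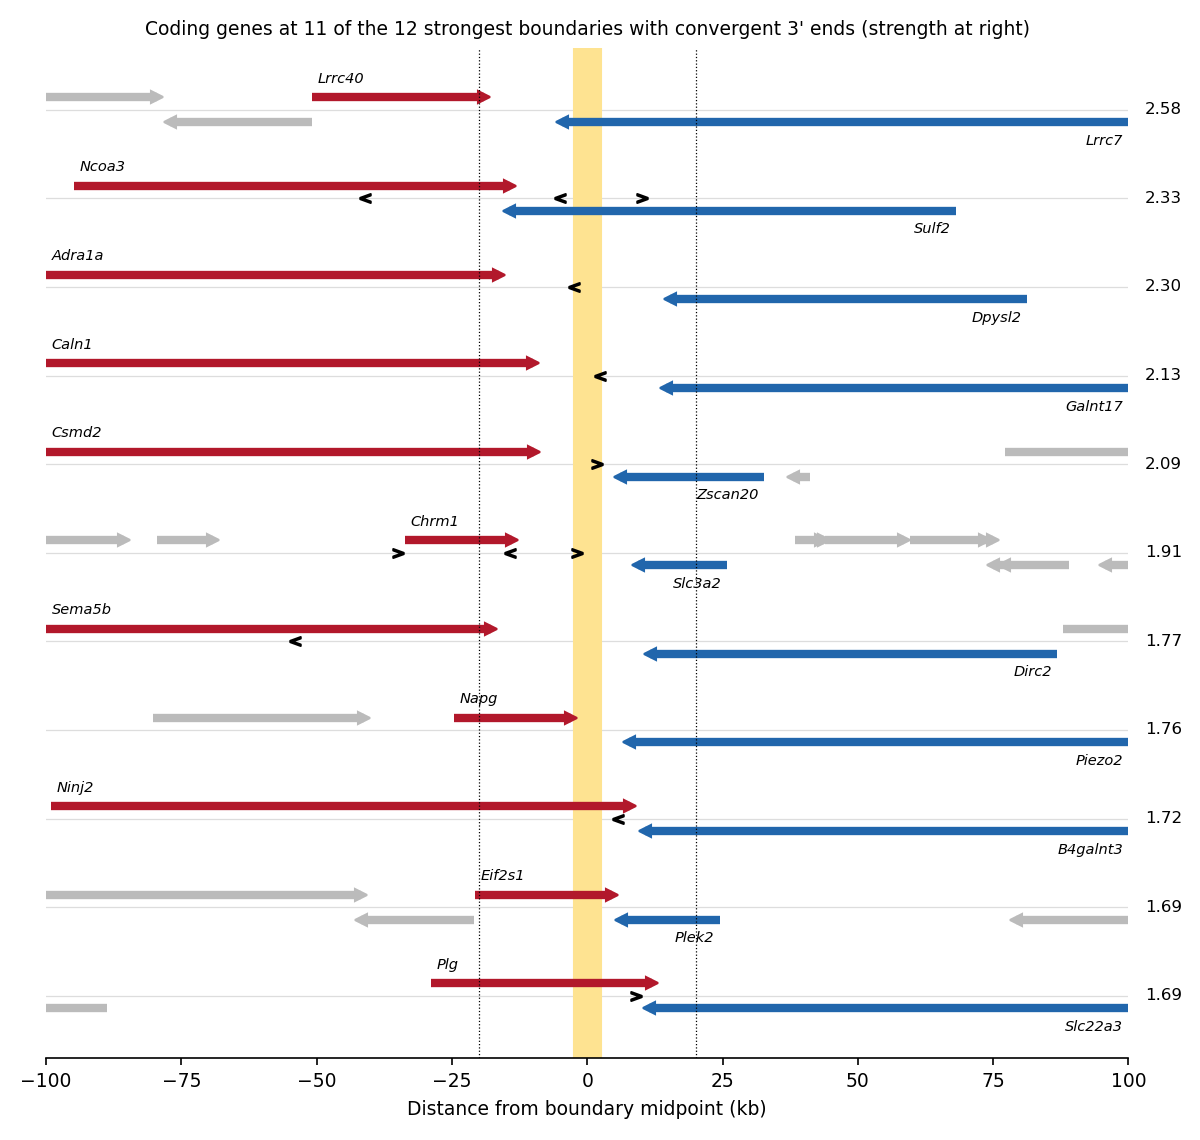
Coding genes (arrows point 5′ to 3′) within 100 kb of the midpoint (kb, horizontal axis) are drawn for 11 of the 12 strongest convergent boundaries, in order of strength (right), with the 5 kb interval in yellow, the 20 kb window dotted and CTCF core matches as black arrowheads in their direction. Plus strand genes ending in the window are red, minus strand ones blue and other genes grey, and at 6 of the 11 the midpoint lies outside coding genes.

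The 8 strongest single-sided boundaries reached higher strengths, from 2.54 to 3.02. They are the top of 822 boundaries and the convergent ones the top of 183, so the extremes are not compared on equal terms. The highest, 3.02 (chr6:89680001-89685000), lay 6.97 kb beyond the end of Txnrd3, a thioredoxin and glutathione reductase, with no core match within 20 kb. The boundary beyond Cmip scored 2.83 (chr8:117475001-117480000), lay 18.1 kb from the gene end and had 3 matches. Its nearest coding 5′ end was that of Plcg2, a phospholipase, at 20.8 kb, just outside the limit. The boundary beyond Utp18, a factor of ribosomal RNA processing, scored 2.76 (chr11:93850001-93855000) and had no match.

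The boundary at Odr4 scored 2.64 (chr1:150365001-150370000) and lay 6.20 kb inside that gene, whose C. elegans namesake is needed to bring odorant receptors to the cilia of sensory neurons. Beyond Cenpc1, the centromere protein CENP-C, a boundary of 2.58 lay 14.5 kb from the 3′ end (chr5:85995001-86000000) with 1 match. Beyond Sgk1, the serum and glucocorticoid regulated kinase, a boundary of 2.54 lay 12.6 kb from the 3′ end (chr10:22010001-22015000) with 2 matches. Beyond Pdcd6ip, the ESCRT-associated protein ALIX, a boundary of 2.54 lay 4.24 kb from the end (chr9:113645001-113650000) with none. Ipmk, an inositol phosphate kinase, held a boundary of 2.54 inside the gene, 5.83 kb before its end (chr10:71425001-71430000), with 1 match. In all, 4 of these 8 had a core match and 6 lay beyond the gene. Over all single-sided boundaries 26.5% had a match (33.0% of the Strong ones) and 56.0% lay beyond the nearest 3′ end.

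The genes that ended at these boundaries were long. The nearest ending gene had a median length of 65.6 kb (interquartile range 35.7 to 138 kb), against 60.4 kb for the bins meeting the rule and 17.4 kb for all coding genes. A rule that removes 5′ ends within 20 kb removes short genes, as the value for the bins shows. The Strong share showed no order with gene length. It was 57.8% at genes up to 20 kb, 66.8% from 20 to 50 kb, 62.2% from 50 to 100 kb, 55.1% from 100 to 200 kb and 61.0% over 200 kb. The share of bins that were boundaries in these ranges was 2.03, 2.16, 2.18, 2.77 and 2.39%.

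The 5 longest genes that ended at such a boundary had scores from 0.220 to 1.52. Lsamp, a neuronal adhesion molecule (2197 kb long), held a Strong boundary of 1.52 inside the gene, 14.2 kb before its end (chr16:42165001-42170000). Gm20388, a predicted gene of 4435 kb, ended 16.8 kb before a Strong, convergent boundary of 1.42 (chr8:124360001-124365000), the only one with 3 coding 3′ ends in its window. Galnt2, a 114 kb gene on the same strand, also ended 16.8 kb before this midpoint, at nearly the same base. The window thus counts nearly the same end under both gene records. The other 3 boundaries were Weak and inside the gene: Dmd, encoding dystrophin, had 0.245, Cntnap2, a neurexin family adhesion molecule, 0.223, and Dlg2, the postsynaptic scaffold PSD-93, 0.220.

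Of all 21755 coding genes, 1191 (5.47%) had their 3′ end within 20 kb of such a boundary, and 986 of the 6341 with an isolated 3′ end, one without a coding 5′ end within 20 kb (15.5%). Gene lists are read against both shares. Among genes of odorant signalling the count was 2 of 21 (9.52%), and 2 of 9 with an isolated end. Cngb1, a subunit of the olfactory cyclic nucleotide-gated channel, ended 11.5 kb before a Strong boundary of 0.925 (chr8:95225001-95230000). Ric8b, a chaperone and exchange factor of the olfactory G protein, held a Weak one of 0.417, 0.837 kb before its end (chr10:85015001-85020000).

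Genes of receptor choice and nuclear architecture gave 7 of 34 (20.6%, 8.70 to 37.9%), of which 2 boundaries were Strong. Among those with an isolated 3′ end the count was 7 of 20 (35.0%), against 15.5% of all isolated ends. No interval is given for this small count, and no enrichment was tested. The median gene length in this list was 50.2 kb, against 17.4 kb for all coding genes. Lmnb1, which encodes lamin B1 of the nuclear lamina, held a boundary of 0.988 inside the gene, 15.9 kb before its end (chr18:56735001-56740000). Ebf3, a transcription factor of the Olf/Ebf family, held one of 0.625, 3.83 kb before its end (chr7:137195001-137200000). Smc1a, a cohesin subunit, ended 19.8 kb before a Weak boundary of 0.463 on X, near the limit of the window. The other 4 were Ebf2 (0.443), the cohesin subunit gene Smc3 (0.397), Ebf1 (0.326) and the DNA methyltransferase gene Dnmt3a (0.204), all Weak and chosen after their values were seen.

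Axon guidance and adhesion genes gave 6 of 46 (13.04%, 4.94 to 26.3%). The strongest were at Tenm4, a teneurin (1.36, 16.4 kb beyond the gene), Unc5c, a netrin receptor (0.788, 12.4 kb inside), and Dcc, another netrin receptor (0.531, 3.87 kb inside). Of those with an isolated 3′ end 6 of 39 (15.4%) had such a boundary, close to the share of all isolated ends. Synapse genes gave 6 of 32 (18.8%, 7.21 to 36.4%), led by Rims1, a presynaptic active zone protein (1.50, 13.8 kb beyond), Nlgn3, a neuroligin (0.549, 16.5 kb beyond), and Shank1, a postsynaptic scaffold (0.289, 1.93 kb beyond). Of the synapse genes with an isolated 3′ end the count was 6 of 19 (31.6%). No interval is given for this small count either, and no enrichment was tested. The median gene length was 309 kb in the axon list and 136 kb in the synapse list, against 17.4 kb for all coding genes. Of both lists together, 5 boundaries were Strong and the other 7 Weak.

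In lists of other cells and of short or clustered genes few genes met the rule. This count does not cover boundaries that also had a coding 5′ end nearby. With boundaries of any kind, 44.6% of ribosomal, 37.5% of blood, endothelium, immune and glia, 35.7% of housekeeping and 29.9% of histone genes had a 3′ end within 20 kb. Other cell types of the epithelium had 18.2%, zinc finger genes 13.5%, olfactory receptors 11.3% and all coding genes 19.8%. An isolated 3′ end was found at 29.1% of all coding genes. The share was 14.3% or lower in the housekeeping, ribosomal, histone and olfactory receptor lists. It was 31.8% for other cell types of the epithelium, 31.25% for blood, endothelium, immune cells and glia, and 26.6% for zinc finger genes. Housekeeping genes gave 1 of 28, Hprt of purine salvage (0.408, Weak), and 1 of 4 with an isolated end. Genes of other cell types of the epithelium gave 1 of 22, the mucin gene Muc5b (0.347, Weak), and 1 of 7 with an isolated end. Markers of blood, endothelium, immune cells and glia gave 0 of 16, of which 5 had an isolated end. The symbol pattern for ribosomal protein genes gave 3 of 101, all 3 among its 6 genes with an isolated end. Of these Rps14 (0.997, Strong) is a ribosomal protein gene and Rps6ka1 and Rps6ka5 are kinase genes that the pattern also takes. Zinc finger genes gave 12 of 394 (3.05%), of which 8 were Strong, and 9 of 105 with an isolated end (8.57%). Replication-dependent histone genes gave 0 of 67, and 0 of these had an isolated end. Olfactory receptor genes gave 5 of 1134 (0.441%, 0.143 to 1.03%), at 4 boundaries that were all Weak, from 0.227 to 0.289. These were Olfr126, Olfr1408 and Olfr1321, and the convergent pair Olfr477 and Olfr478, named with the ribosomal pattern genes after their values were seen. An isolated 3′ end was found at 4 of the 1134 receptor genes, and 0 of these 4 were at such a boundary.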

How the data were processed

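In situ Hi-C was made from 2 samples of 1 group. The authors made 1 contact map on GRCm38 from both and called boundaries on it, per the labels' design text. Per the deposited values, each 5 kb interval carries a class and a strength, the authors' score with no stated scale. The boundary caller, the read mapper and their settings were not given in the sources used here, and contact depth is unknown. Contact lists, matrices, insulation and compartment tracks were not used here, and 0 columns of the list were left unmapped.

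Gene ends came from protein-coding gene records of GENCODE M21 and sequence from the RefSeq GRCm38.p6 reference. Distances were taken from the interval's midpoint. CTCF core matches were exact on either strand. Bins of 5 kb with undetermined bases were left out, and 6 boundaries lay in such bins. Shares, medians and their intervals were computed with Python 3.11.15, numpy 2.4.6, pandas 2.3.3, scipy 1.17.1 and statsmodels 0.14.6, and figures drawn with matplotlib 3.10.9. The procedures were tested on simulated data.

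The rule, gene lists and comparisons were chosen with earlier results of these data known. Genes named are those nearest at the 12 strongest convergent and 8 strongest single-sided boundaries, up to 3 per written list with the strongest boundary, and the 5 longest ending genes. Printed CTCF matches are those nearest the midpoint at the strongest boundaries with a match, at most 6 convergent and 4 single-sided. Of the 12 convergent boundaries, 1 and its match are not reported here. Alternatives were windows of 10 and 40 kb, transcript ends, 5′ ends of every biotype, autosomes only, boundaries without a match, Strong boundaries only, 1 mismatch in the core and the reversed core.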

Additional observations from a re-analysis of the deposited data

How the results depend on the processing

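Of 37 alternative values, 24 stayed within their limits, 13 moved further and 0 called values changed sign. The number of boundaries meeting the rule was 628 when 5′ ends of every biotype removed a boundary. The Strong share stayed between 59.9 and 63.2% with other windows, gene ends or autosomes only, and was 56.3%, with a median strength of 0.576, without a CTCF core match. With a 10 kb window it was 63.2% at coding 3′ ends, 62.7% at promoters and 44.5% without a gene end, and with 40 kb 60.2, 62.8 and 32.0%. The convergent minus single-sided difference ran from -2.34 to 3.35 points. The share with the midpoint beyond the gene was 48.1% with 10 kb and 60.5% with 40 kb, so it depends on the window. The share of bins on that side is not given for these windows, so no preference for a side can be read from them. The share with a core match was 24.0% with 40 kb, 33.8% in the Strong class, 80.0% with 1 mismatch (73.1% of all boundaries) and 0.199% with the reversed core. A match with 1 mismatch also lay near 65.7% of boundaries without a gene end and 58.2% of all callable bins. With 1 mismatch 59.0% of matches pointed away. Isolated 3′ ends with a boundary were 11.95% with Strong boundaries only, 10.3% within 10 kb and 36.4% within 40 kb, against 7.19, 7.87 and 26.7% of bins. The cause of these shifts was not tested, except that around a fixed 3′ end a wider window takes more boundaries, and a looser motif more matches, by construction.

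No paired analysis was possible because both replicates were pooled before boundaries were called, and for the same reason no replicate was left out in turn. The depth of the contact map, which bears on how many Weak boundaries are found, is unknown.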
